A study of Mus musculus with 6 samples.

Results

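The replication-dependent histone genes were described here across 6 RNA-seq libraries of mouse Kit-positive bone marrow cells. Members were all rows of the deposited table whose symbol began with Hist, then a digit from 1 to 4, then h. There were 67 such rows among 23417 rows with a gene symbol: 6 for linker histone H1, 18 for H2A, 18 for H2B, 12 for H3 and 13 for H4. The rule used symbols and no measured value. Hist3h2bb-ps, among the H2B rows, is annotated as a processed pseudogene.

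Cells of the C57BL/6 strain, grown with FLT3, IL-6, IL-3 and mSCF, received a retrovirus with a mutated CSF3R, which encodes the G-CSF receptor that drives neutrophil production, or a control vector. The T618I-containing constructs were T618I, T618I/Q741 and T618I/W791 (n = 3), the truncations alone were W791 and Q741 (n = 2), and vector was a single library. T618I changes the membrane-proximal part of the receptor, and Q741 and W791 shorten its tail. The series' design text calls proximal and double mutants leukemogenic, unlike the truncations. Each construct was sequenced once from sorted cells grown overnight, so every SD and p-value measures the spread between constructs of a class, library noise included. No construct carried the unmutated receptor, and all cells, vector included, had been isolated with Kit beads and transduced. Kit, Cd34, Ly6a and Flt3, the progenitor markers checked, were all detected and summed to between 241 and 764 FPKM in T618I-containing libraries, 540 and 589 in truncation libraries and 591 with vector. FPKM scales fragments by transcript length and library size. It does not correct for how well a transcript is captured or how reads shared between genes are assigned.

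Core histones H2A, H2B, H3 and H4 form the nucleosome, and H1 binds the linker DNA between nucleosomes. Cells make most of their new histone protein in S phase, from clustered genes whose mRNAs carry no poly(A) tail. These mRNAs end instead just past a short stem-loop, which is bound by the protein Slbp and directs cleavage with the help of the U7 small nuclear RNA. Some of the genes can also give longer, polyadenylated transcripts, mainly in cells that leave the cell cycle. The libraries were prepared with a stranded mRNA kit, per the labels' protocols; such kits select RNA by its poly(A) tail, so they capture the first kind of transcript poorly and the second kind well.

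The stem-loop was found in the longest annotated transcript of 45 of the 67 genes, against 0.139% of the longest transcripts of 55341 annotated genes. It was searched on the transcribed strand by the consensus of the histone 3′ stem-loop. In 25 genes, of the H1, H2A, H2B and H3 types, it had the same 16 bases. No match says only that the annotated transcript does not hold these letters. The stem-loops of the H1, H2A, H3 and H4 genes with the highest levels, and of an H2A gene listed at 0 in every library, are shown 5′ to 3′ from GENCODE M21 transcripts on mm10. Capitals mark the consensus match.
Hist1h1c (chr13:23739507-23739532, plus strand): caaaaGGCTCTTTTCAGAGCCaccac
Hist3h2a (chr11:58955167-58955192, plus strand): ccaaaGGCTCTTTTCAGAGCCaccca
Hist1h3c (chr13:23745042-23745067, minus strand): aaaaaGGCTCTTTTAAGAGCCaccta
Hist1h4i (chr13:22040961-22040986, minus strand): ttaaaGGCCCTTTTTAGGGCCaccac
Hist1h2ad (chr13:23574890-23574915, plus strand): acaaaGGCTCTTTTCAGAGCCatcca

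Hist1h1c, the highest member, and Hist1h2ad, listed at 0 throughout, held the same 16 capitals. Their annotated ends differed: the Hist1h2ad transcript stopped at the stem-loop. The Hist1h1c transcript ran 840 bases past the stem-loop, that of Hist3h2a 1643 bases and that of Hist1h4i 330 bases, and each ended just after a poly(A) signal (AATAAA or ATTAAA within the last 40 bases of an annotated transcript, on the transcribed strand). Hist2h2be, an H2B gene, had such a signal and no stem-loop match in its transcript. A signal of this kind was found in 16 of the 67 genes (23.9%), against 42.9% of all annotated genes. The signals of the 4 highest genes that had one are shown in capitals, from the same transcripts.
Hist1h1c (chr13:23740332-23740357, plus strand): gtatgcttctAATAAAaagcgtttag
Hist1h4i (chr13:22040641-22040666, minus strand): ttctgtttacATTAAAagtattctat
Hist3h2a (chr11:58956787-58956812, plus strand): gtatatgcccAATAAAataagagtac
Hist2h2be (chr3:96223707-96223732, plus strand): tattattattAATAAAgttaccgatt

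The histone genes as a group were low, and a few genes held most of the signal. The median member had a mean of 0.203 FPKM over the 6 libraries. Of the 67 genes, 10 were listed at 0 in every library, 28 in some libraries and 29 in none. Only 9 had a mean of 1 FPKM or more and 4 a mean of 5 or more: Hist1h1c, Hist1h2bc, Hist1h4i and Hist3h2a. The 5 highest genes, which add Hist2h2be, held 75.9% of the summed histone FPKM with T618I, 83.2% with T618I/Q741, 75.9% with T618I/W791, 75.5% with W791, 76.7% with Q741 and 69.8% with vector. Of the 10 genes listed at 0 throughout, 7 were H2A genes (Hist1h2aa, Hist1h2ad, Hist1h2an, Hist1h2ao, Hist1h2ap, Hist2h2aa1 and Hist2h2ab), 2 were H2B genes (Hist1h2ba and Hist1h2bq) and Hist1h4n was an H4 gene. Hist1h2aa and Hist1h2ba encode testis forms.

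By annotated end, the 16 genes with a poly(A) signal had a median mean of 0.539 FPKM and the other 51 a median of 0.169. The 16 genes held 67.1% of the summed histone FPKM with T618I, 70.9% with T618I/Q741, 68.2% with T618I/W791, 65.6% with W791, 67.7% with Q741 and 61.5% with vector. They included 3 of the 4 genes with a mean of 5 or more. The fourth, Hist1h2bc, was annotated with 2 exons and no stem-loop in the spliced transcript. Among the 51, the 11 genes whose transcript ran at least 100 bases past the stem-loop had a median of 0.278 FPKM and were led by Hist1h2bg (2.94). The 21 genes whose transcript stopped at the stem-loop had a median of 0.267 FPKM and were led by Hist1h3c (1.88), and 5 of them were listed at 0 throughout. The 19 with no stem-loop in the transcript had a median of 0.133 FPKM. No test was made of these differences, since members of a cluster share sequence. How much of a transcript also occurs in other genes differed between these groups as well, as given below. Whether the measured fragments carried poly(A) tails was not tested.

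**Figure D1:**
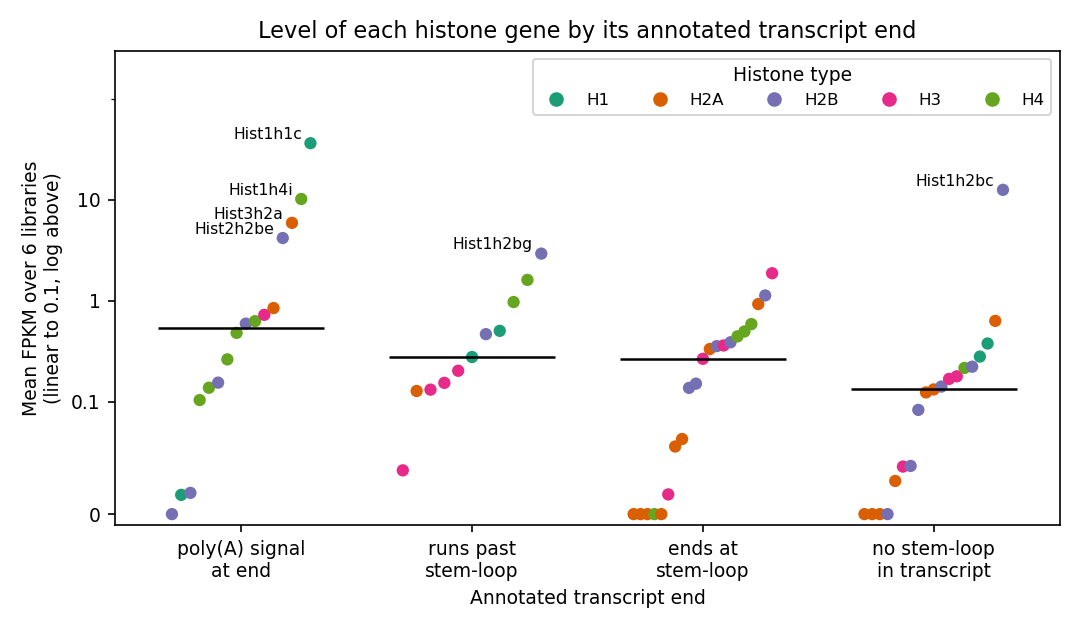
Mean FPKM over the 6 libraries (vertical axis, linear up to 0.1 and logarithmic above) of each of the 67 histone genes, grouped by the end of its GENCODE M21 transcript and coloured by histone type; black lines are group medians. The genes with a poly(A) signal had the highest median, 0.539 FPKM, and held Hist1h1c, Hist1h4i, Hist3h2a and Hist2h2be.

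By position, 53 genes lay on chromosome 13, 10 on chromosome 3, 3 on chromosome 11 and 1 (Hist4h4) on chromosome 6. Histone genes are near copies of each other, and how the submitters' counting shared reads between copies was not stated in the sources used. In the annotated transcripts, a median of 49.3% of a member's 50-base windows also occurred in another gene, and 31 members shared over 50%. The median was 1.13% for H1, 73.0% for H2A, 44.5% for H2B, 62.0% for H3 and 39.5% for H4. By shared sequence alone, values of single H2A and H3 genes are thus mostly less certain than those of H1 genes. Few fragments also limit low H1 genes, such as Hist1h1b, with about 5.51 per library on average. By annotated end, the median share was 26.7% for genes with a poly(A) signal and 54.6% for the other 51. Among the 51 it was 24.8% for genes running past the stem-loop, 60.4% for those stopping at it and 71.5% for those without it. What part shared sequence had in the levels by annotated end was not tested. From the smallest steps between low values, depth was approximated at 20700000 to 43800000 fragments per library, the highest being vector. The median member then rested on about 4.46 fragments per library, and 33 members had under 10 in every library. The number of members listed at 0 was 27 with T618I, 25 with T618I/Q741, 32 with T618I/W791, 21 with W791, 26 with Q741 and 16 with vector, the deepest library.

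The summed level of the 67 genes was 92.4 FPKM in T618I cells, 95.4 in T618I/Q741 cells and 65.9 in T618I/W791 cells, against 106 in W791 cells and 89.3 in Q741 cells, and 97.3 in vector cells. T618I/W791 stood lowest, and the other 5 libraries lay within 89.3 to 106 FPKM. As a share of all FPKM in the library the sum was 0.0198%, 0.0194% and 0.0137% in the same T618I-containing order, 0.0236% and 0.0203% with W791 and Q741, and 0.0212% with vector. In bulk samples, fewer cells of a type and less RNA per cell cannot be told apart.

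**Figure D2:**
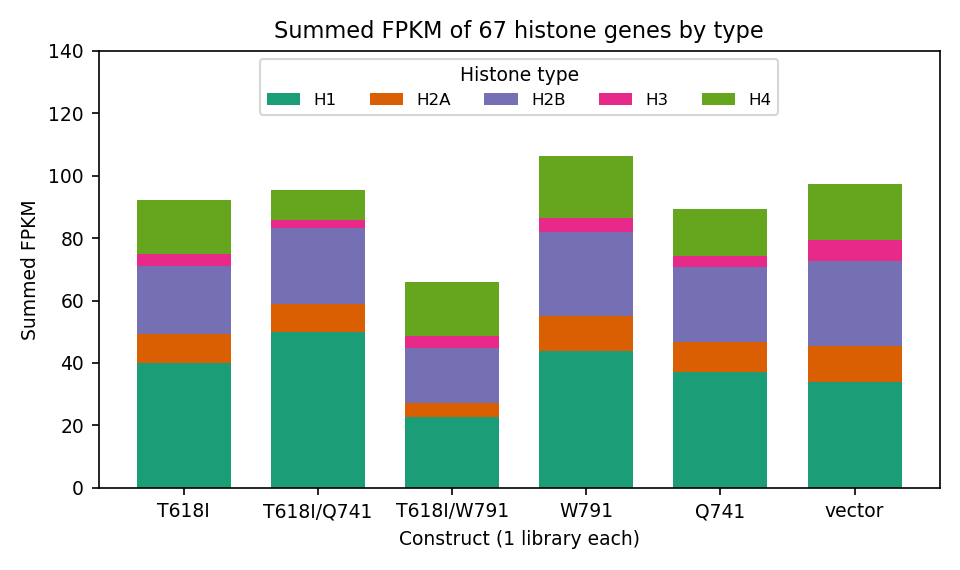
Summed FPKM of the 67 histone genes in each library (1 library per construct), stacked by histone type. The T618I/W791 bar is the shortest at 65.9 FPKM, with H1 at 22.6 FPKM, and the others reach between 89.3 and 106 FPKM.

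A gene entered the tests only with 1 FPKM or more in at least 2 libraries. Of the 67 histone genes 13 did so; 49 were below 1 FPKM in every library, and Hist1h1a, Hist1h4f, Hist1h4m, Hist2h3c1 and Hist3h2ba reached it in 1 library. Differences below are on the log2(FPKM + 1) scale from limma, the first-named class minus the second, with their SE and p-values adjusted over all 11188 genes tested. This scale understates the change of low genes. The vector library stands alone and is assumed to vary like the other groups.

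Hist1h1c, which encodes the linker histone H1.2, was the highest member. It lies on the plus strand at chr13:23738808-23740367 (mm10), as a single exon. Its level was 37.9 FPKM in T618I cells, 48.5 in T618I/Q741 cells and 21.5 in T618I/W791 cells, against 42.5 in W791 cells and 35.6 in Q741 cells, and 32.5 in vector cells. The double mutants held the highest and the lowest value, so the classes overlapped. The mean was 36.0 ± 13.6 FPKM (SD, n = 3) in T618I-containing libraries and 39.1 ± 4.89 (SD, n = 2) in truncation libraries. The difference was -0.18 ± 0.35 (SE), with a 95% confidence interval of -1.05 to 0.69 and an adjusted p of 0.980. It was 0.14 without the T618I/W791 library. About 694 to 2217 fragments per library lay behind these values, so counting error was small beside the spread between constructs.

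The other H1 genes were low. Hist1h1d, which encodes H1.3, ranged from 0.338 to 0.686 FPKM and Hist1h1a, which encodes H1.1, was at 1.03 FPKM in T618I cells, 0.244 in T618I/Q741 cells and 0.0780 in T618I/W791 cells, against 0.157 in W791 cells and 0.310 in Q741 cells, and 0.452 in vector cells. Hist1h1b and Hist1h1e stayed below 1 FPKM, and Hist1h1t, the testis form, reached at most 0.0577 FPKM. Summed H1 was 39.9 FPKM in T618I cells, 50.1 in T618I/Q741 cells and 22.6 in T618I/W791 cells, against 43.9 in W791 cells and 37.0 in Q741 cells, and 33.8 in vector cells. The H1 sum thus followed Hist1h1c.

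Among H2A genes, Hist3h2a was the highest. It lies outside the large clusters, on the plus strand at chr11:58954685-58956830. Its level was 5.77 FPKM in T618I cells, 7.02 in T618I/Q741 cells and 2.46 in T618I/W791 cells, against 6.62 in W791 cells and 6.13 in Q741 cells, and 7.56 in vector cells. Only T618I/W791 stood apart, below the rest. The means were 5.08 ± 2.36 FPKM (SD, n = 3) in T618I-containing and 6.38 ± 0.346 (SD, n = 2) in truncation libraries, a difference of -0.37 ± 0.37 (SE; adjusted p = 0.913, 95% confidence interval -1.30 to 0.57). Without T618I/W791 the difference was -0.0018, and without T618I/Q741 it was -0.61. The gene overlaps Trim17 on the same strand, which was at 0.0561 FPKM or less in every library, and Gm44313 on the other strand.

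Hist1h2ag, a chromosome 13 H2A gene, was at 0.784 FPKM in T618I cells, 0.392 in T618I/Q741 cells and 0.591 in T618I/W791 cells, against 0.920 in W791 cells and 1.39 in Q741 cells, and 1.51 in vector cells. All T618I-containing libraries lay below the others. The difference from the truncations, -0.44 ± 0.20 (SE), did not pass the test (adjusted p = 0.610), nor did that from vector, -0.66 ± 0.25 (unadjusted p = 0.0410, adjusted p = 0.558). In this gene 78.9% of the windows occur in other genes. Hist1h2ae was at 0.468, 0.687 and 1.32 FPKM in the T618I, T618I/Q741 and T618I/W791 libraries, against 1.28 and 0.446 FPKM with W791 and Q741, and 0.897 with vector, with overlapping classes (-0.02, adjusted p = 0.999). The remaining H2A gene tested, Hist1h2ak, was at 1.46, 0.173 and 0 FPKM in the T618I, T618I/Q741 and T618I/W791 libraries, against 1.18 and 0.672 FPKM with W791 and Q741, and 0.320 with vector (-0.42, adjusted p = 0.906). It rested on at most about 12.2 fragments in a library.

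Among H2B genes, Hist1h2bc was the highest, on the plus strand at chr13:23684199-23692908. It was at 12.5 FPKM in T618I cells, 15.03 in T618I/Q741 cells and 7.97 in T618I/W791 cells, against 14.96 in W791 cells and 11.7 in Q741 cells, and 13.5 in vector cells. As for Hist1h1c, the double mutants held the highest and the lowest value. The means were 11.8 ± 3.57 FPKM (SD, n = 3) in T618I-containing and 13.3 ± 2.33 (SD, n = 2) in truncation libraries, a difference of -0.19 ± 0.28 (SE; adjusted p = 0.957, 95% confidence interval -0.89 to 0.51).

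Hist2h2be, on the plus strand at chr3:96221119-96223738, was the member nearest to a call. Its level was 3.64 FPKM in T618I cells, 3.24 in T618I/Q741 cells and 2.998 in T618I/W791 cells, against 4.95 in W791 cells and 5.56 in Q741 cells, and 4.78 in vector cells. All T618I-containing libraries lay below all others, and none of its windows occur in another gene. The means were 3.29 ± 0.325 FPKM (SD, n = 3) in T618I-containing and 5.26 ± 0.430 (SD, n = 2) in truncation libraries, a difference of -0.54 ± 0.14 (SE; 95% confidence interval -0.90 to -0.19). The unadjusted p was 0.0105 and the adjusted p 0.379, so it did not pass the test. Against vector the difference was -0.43 ± 0.18 (SE), with an adjusted p of 0.617. Hist1h2bg was at 2.38, 3.51 and 2.02 FPKM in the T618I, T618I/Q741 and T618I/W791 libraries, against 3.10 and 2.505 FPKM with W791 and Q741, and 4.12 with vector (-0.08, adjusted p = 0.994). Hist1h2bj ranged from 0.788 to 1.55 FPKM over the 6 libraries (-0.17, adjusted p = 0.906).

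H3 gave the lowest sum of the core histones: 3.71 FPKM in T618I cells, 2.69 in T618I/Q741 cells and 3.89 in T618I/W791 cells, against 4.73 in W791 cells and 3.40 in Q741 cells, and 6.62 in vector cells. Hist1h3c, at chr13:23744973-23745602 on the minus strand, was the H3 gene that reached the tests. It was at 2.18 FPKM in T618I cells, 0.567 in T618I/Q741 cells and 1.87 in T618I/W791 cells, against 1.346 in W791 cells and 1.46 in Q741 cells, and 3.85 in vector cells. The T618I-containing libraries lay on both sides of the truncations and all were below vector. The difference between the classes was 0.01 ± 0.33 (SE; adjusted p = 0.999), and that of T618I-containing libraries from vector was -0.999 (adjusted p = 0.617). Hist2h3c1, not tested, was at 0.521, 0.529 and 0.365 FPKM in the T618I, T618I/Q741 and T618I/W791 libraries, against 0.940 and 1.15 FPKM with W791 and Q741, and 0.865 with vector. The classes did not overlap, but all of its windows occur in other genes. Hist1h3g was at 0, 0.550 and 0.610 FPKM in the T618I, T618I/Q741 and T618I/W791 libraries, against 0.749 and 0.178 FPKM with W791 and Q741, and 0.0852 with vector.

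Among H4 genes, Hist1h4i was the highest, on the minus strand at chr13:22040636-22041362. It was at 10.3 FPKM in T618I cells, 5.52 in T618I/Q741 cells and 15.1 in T618I/W791 cells, against 11.1 in W791 cells and 9.57 in Q741 cells, and 9.64 in vector cells. Here too the double mutants held both ends, but in the opposite order to Hist1h1c: T618I/W791 was the highest library and T618I/Q741 the lowest. The means were 10.3 ± 4.79 FPKM (SD, n = 3) in T618I-containing and 10.4 ± 1.11 (SD, n = 2) in truncation libraries, a difference of -0.10 ± 0.38 (SE; adjusted p = 0.995, 95% confidence interval -1.06 to 0.86).

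Hist1h4c had the widest standard error of the 13 genes. It was at 2.48 FPKM in T618I cells, 1.05 in T618I/Q741 cells and 0.343 in T618I/W791 cells, against 3.47 in W791 cells and 0.984 in Q741 cells, and 1.355 in vector cells. The truncations lay on both sides of most other libraries, and about 5.81 to 58.9 fragments per library lay behind the values (-0.49 ± 0.52 SE, adjusted p = 0.917). Hist1h4d was at 1.33 FPKM in T618I cells, 0.716 in T618I/Q741 cells and 0.944 in T618I/W791 cells, against 0.321 in W791 cells and 0.609 in Q741 cells, and 1.93 in vector cells. Its T618I-containing libraries lay above the truncations and below vector. Neither the difference from the truncations, 0.44 ± 0.21 (SE; adjusted p = 0.629), nor that of the truncations from vector, -1.01 ± 0.28 (SE; unadjusted p = 0.0127, adjusted p = 1), passed the test.

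**Figure D3:**
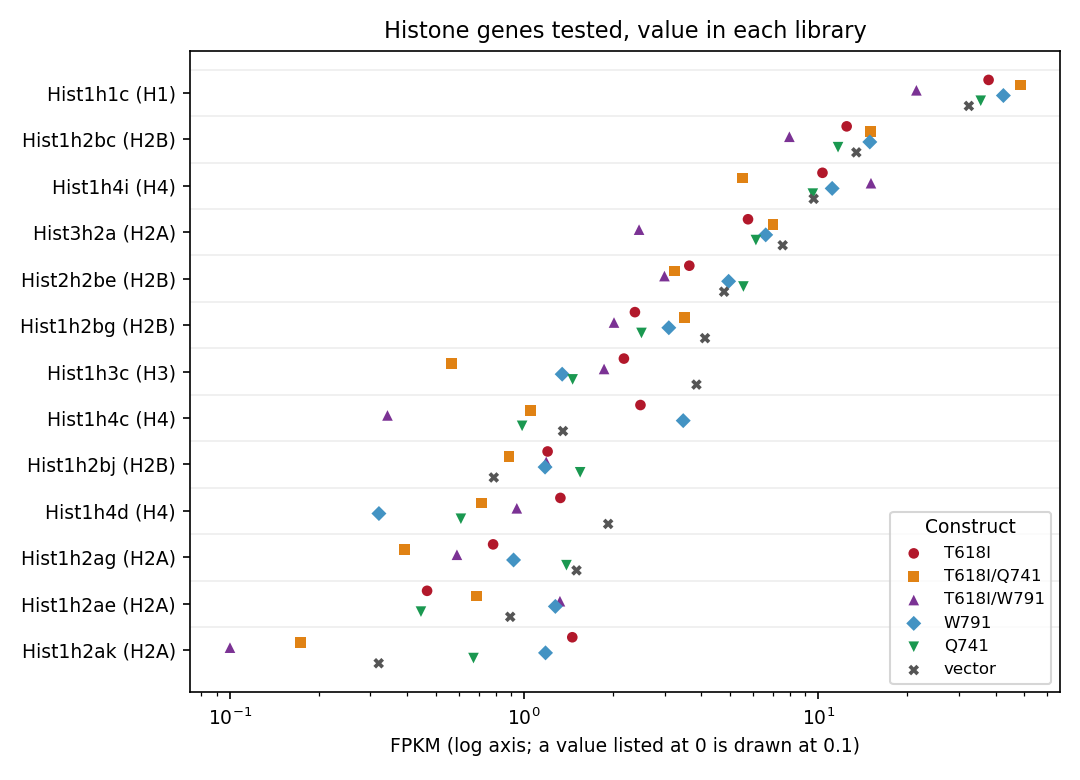
FPKM in each library (horizontal, logarithmic axis; a value listed at 0 is drawn at 0.1) of the 13 histone genes tested, ordered by mean level, with 1 symbol per construct. Hist2h2be shows the T618I-containing libraries (2.998 to 3.64 FPKM) below the others (4.78 to 5.56 FPKM), whereas Hist1h1c and Hist1h4i have the double mutants at opposite ends.

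The main question of the design, T618I-containing constructs against truncations alone, gave no call among the histone genes. None of the 13 genes tested was higher, where 0.179% of all genes tested were, and none was lower, where 0.0179% were. At an unadjusted p below 0.05 none was higher (4.16% of all genes tested) and 1, Hist2h2be, was lower (4.86%). The median difference of the 13 was -0.18, against -0.07 over all genes tested, with 2 above 0 and 11 below (3880 above and 7308 below over all genes). Without the W791 library the median of the 11 members then kept by the filter was -0.023, against -0.07 over all genes. Without Q741 the filter kept 12 members, with a median of -0.33. With the libraries rescaled by median ratios, the all-gene median became 0.00 and that of the 13 became -0.11. The 13 passed a filter on level and do not stand for all 67.

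Counting libraries that do not overlap takes in all 67 genes. In 2 of them every T618I-containing library was above both truncations (2.99%), against 7.02% of all rows: Hist1h4d and Hist1h4h. In 8 every T618I-containing library was below both (11.9%), against 12.3% of all rows: Hist2h2be, Hist1h2ag, Hist2h3c1, Hist1h4f, Hist1h4k, Hist1h4m, Hist1h2ac and Hist1h2ai. Among the 13 tested these were 1 higher and 2 lower, against 9.22% and 21.1% of all genes tested. After median-ratio scaling the counts were again 1 and 2, and the shares of all genes tested became 14.2% and 13.6%. With vector added to the truncations, none of the 67 was higher (5.79% of all rows) and 7 were lower (10.4%, against 10.3% of all rows). Among the 13 tested none was higher (8.04% of all genes tested) and 2 were lower (18.2%). The lower shares over all 67 were thus close to those of all rows. Some of the 8 counted lower rested on very few fragments. Hist1h2ai had about 1.88 with T618I/Q741, against 1.94 and 1.93 with W791 and Q741, and 0 with T618I and T618I/W791. Hist1h4k had about 2.05 in each truncation and 0 in each T618I-containing library.

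Against vector, T618I-containing libraries also gave no call among the 13 genes, where 0.134% of all genes tested were higher and 0.0268% lower. At an unadjusted p below 0.05 none was higher (3.38% of all genes tested) and 1, Hist1h2ag, was lower (5.13%). The median difference was -0.21, against -0.08 over all genes, with the lowest adjusted p at 0.558. Truncations against vector gave 0 calls in either direction (0% of all genes tested in each), and at an unadjusted p below 0.05 none was higher (0.241%) and 1, Hist1h4d, was lower (0.411%). There the median difference was -0.02 both for the 13 genes and for all genes.

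Between single libraries the double mutants differed, and these differences have no replicate check. T618I/Q741 against T618I/W791 gave 2 of the 13 genes at least 2-fold higher on the log2(FPKM + 1) scale, Hist1h1c by 1.14 and Hist3h2a by 1.21. It gave 1 at least 2-fold lower, Hist1h4i, at -1.30. Of all genes tested, 5.88% were that much higher and 7.58% that much lower. The median of the 13 was 0.09, against -0.12 over all genes tested.

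T618I added to a truncation was compared within each tail. For T618I/Q741 against Q741 the median of the 13 was 0.05, against -0.16 over all genes tested. None passed 2-fold (4.74% of all genes tested were higher and 1.89% lower). For T618I/W791 against W791 the median was -0.44, against -0.004 over all genes tested. None was 2-fold higher (2.34% of all genes) and 3 were 2-fold lower (4.26%). The 3 were Hist1h4c at -1.74, Hist3h2a at -1.14 and Hist1h2ak, which was listed at 0 with T618I/W791. Hist1h1c was at 0.44 in the Q741 pair and -0.95 in the W791 pair, and Hist1h2bc at 0.34 and -0.83. Hist1h4i went the other way, at -0.70 in the Q741 pair and 0.41 in the W791 pair. Hist2h2be was lower in both, at -0.63 and -0.57.

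**Figure D4:**
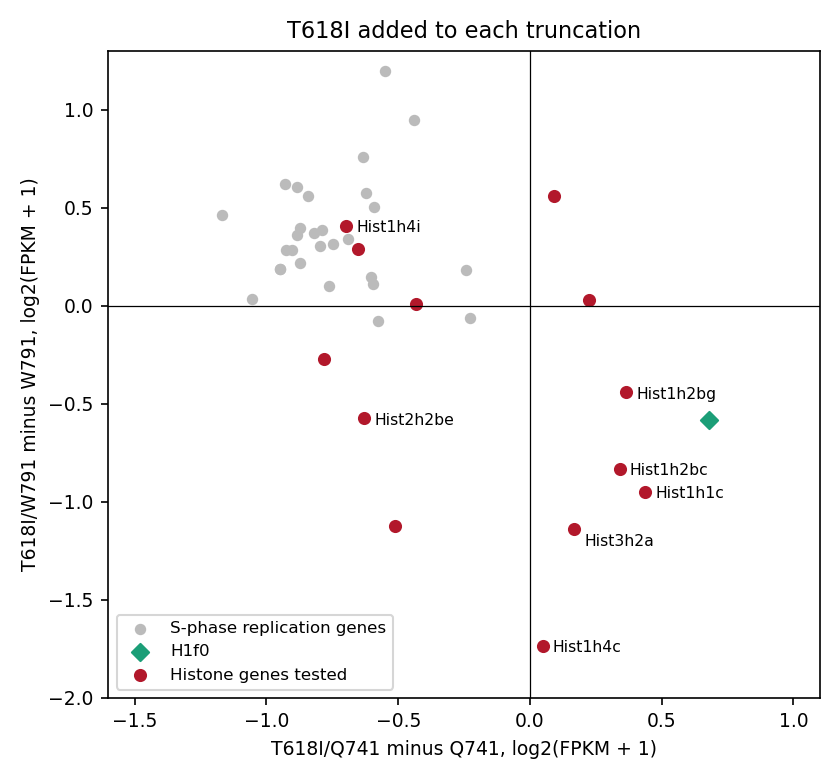
Difference on the log2(FPKM + 1) scale of T618I/Q741 minus Q741 (horizontal) and of T618I/W791 minus W791 (vertical), 1 library on each side, for the 13 histone genes tested (red), 28 S-phase replication genes (grey) and H1f0 (green). Of the replication genes 28 of 28 lie left of 0 (65.5% of all genes tested) and 26 of 28 above 0 (49.7%). Hist1h1c, Hist1h2bc, Hist3h2a and H1f0 lie right of and below 0.

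T618I against vector gave none of the 13 genes 2-fold higher or lower (2.73% and 1.27% of all genes tested). The median was -0.32, against -0.07 over all genes tested. The comparisons of the double mutants with T618I share that library and are given side by side. T618I/Q741 had none 2-fold higher (1.99% of all genes) and 2 lower (1.47%), Hist1h3c at -1.02 and Hist1h2ak at -1.07. T618I/W791 had none higher (1% of all genes) and 2 lower (3.09%), Hist1h4c at -1.38 and Hist1h2ak. Over the 6 libraries, T618I/W791 was the lowest for 7 of the 13 genes, against 28.7% of all genes tested, and T618I/Q741 for 3, against 45.0%.

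The genes of histone mRNA synthesis and processing were examined beside the histone genes. Of 18 listed 16 were tested, and none passed the test between T618I-containing libraries and truncations (median -0.07, 5 above 0 and 11 below). Slbp, which binds the stem-loop, was at 49.6 FPKM in T618I cells, 33.9 in T618I/Q741 cells and 67.6 in T618I/W791 cells, against 51.3 in W791 cells and 52.4 in Q741 cells, and 51.2 in vector cells (-0.10, adjusted p = 0.994). Npat, the transcriptional coactivator of these genes, was at 6.15, 4.13 and 7.58 FPKM in the T618I, T618I/Q741 and T618I/W791 libraries, against 6.07 and 5.96 FPKM with W791 and Q741, and 6.26 with vector (-0.04, adjusted p = 0.998). Both were lowest with T618I/Q741 and highest with T618I/W791, and T618I/Q741 was the lowest library for 13 of the 16. The 20 histone chaperones, which carry and deposit histones, were all tested and none passed (median -0.14, 1 above 0 and 19 below).

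The same libraries differed in S-phase genes. Of 28 DNA replication genes, all tested, none passed the test between the classes (median -0.21, 3 above 0 and 25 below). Their summed level was 1202 FPKM in T618I cells, 778 in T618I/Q741 cells and 1740 in T618I/W791 cells, against 1313 in W791 cells and 1311 in Q741 cells, and 1382 in vector cells. Thus the T618I/Q741 library was lowest and the T618I/W791 library highest, and T618I/Q741 was the lowest library for 28 of 28 genes. Within tails the median was -0.79 for T618I/Q741 against Q741, with 28 of 28 below 0 where 65.5% of all genes tested were, and 0.33 for T618I/W791 against W791. Hist1h4i had the same order of the double mutants, and Hist1h1c, Hist1h2bc and Hist3h2a the opposite order. What part S-phase content had in the histone values was not tested.

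Replication-independent histones are made outside S phase as well. Their levels ran from a mean of 0.828 FPKM (H2afy2) to one of 720 FPKM (H3f3a). Of 11 listed 10 were tested and none passed between the classes (median -0.29, 2 above 0 and 8 below). The 3 highest were H3f3a and H3f3b, which both encode H3.3, and H2afz, which encodes H2A.Z; in every library each was above Hist1h1c. H3f3a was at 686, 636 and 709 FPKM in the T618I, T618I/Q741 and T618I/W791 libraries, against 724 and 744 FPKM with W791 and Q741, and 820 with vector (adjusted p = 0.916). H2afz was at 494, 305 and 519 FPKM in the T618I-containing libraries in the same order, against 532 and 563 FPKM with W791 and Q741, and 490 with vector (adjusted p = 0.825). H3f3b was at 442, 429 and 437 FPKM in those libraries, against 414 and 390 FPKM with W791 and Q741, and 396 with vector (adjusted p = 0.913). H1f0, the linker histone H1.0 of cells that stop dividing and chosen after its values were seen, was at 66.4, 80.4 and 38.1 FPKM in the T618I-containing libraries, against 57.5 and 49.8 FPKM with W791 and Q741, and 61.3 with vector. Its double mutants stood in the same order as those of Hist1h1c.

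Other RNAs without a poly(A) tail, small nuclear and nucleolar RNAs among them, were uneven between libraries. Of 127 listed, 94 were listed at 0 in every library and 19 were tested. Their sum was 1696 FPKM in T618I cells, 389 in T618I/Q741 cells and 1451 in T618I/W791 cells, against 1510 in W791 cells and 664 in Q741 cells, and 2029 in vector cells. Single RNAs weighed heavily on these sums. Snord16a was at 1041 FPKM with T618I/W791, 977 with W791 and 1141 with vector, and at 0 in the other libraries. Snora68 was at 693 FPKM with T618I, 435 with Q741 and 372 with vector, and at 0 in the other libraries. Snord15b, the only call among the 19, was listed at 0 in each T618I-containing library, against 5.90 and 5.23 FPKM with W791 and Q741, and 7.78 with vector. It entered the tests only through the libraries where it was detected, so its call supports nothing here.

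Of the markers of blood lineages, S100a8 and S100a9 were the genes that passed the test between the classes. Neutrophil markers (10 of 10 in the table) summed to between 19799 and 35898 FPKM in T618I-containing libraries. The sums were 3397 and 3753 in truncation libraries and 2588 with vector. S100a8 and S100a9 held most of each sum and rose (adjusted p = 0.00786 and 0.0279) among 10 tested. In 8 of the 10 every T618I-containing library was above both truncations, against 9.22% of all genes tested. For Ltf and Camp the classes overlapped. With T618I they were at 23.3 and 4.25 FPKM, below both truncations and vector. Erythroid markers (13 of 15 in the table, 11 tested) summed to between 195 and 1089 FPKM in T618I-containing libraries, 11.5 and 19.6 in truncation libraries and 16.9 with vector, and none passed. Of the megakaryocyte markers (8 of 8) none passed, and they summed to between 1565 and 2845, 368 and 1044, and 812 FPKM in the same order of classes. Of the monocyte markers (8 of 8) none passed, with sums between 810 and 1492, 1599 and 1764, and 1573 FPKM. None of the mast cell and basophil markers (8 of 8) passed. Their sums overlapped, at 548 to 2155, 1786 to 1900, and 1919 FPKM, but the single genes differed. In 5 of the 8 every T618I-containing library was below both truncations (21.1% of all genes tested). In 1, Mcpt1, every T618I-containing library was above both (9.22%). Csf3r itself was at 69.4, 95.9 and 38.8 FPKM in the T618I, T618I/Q741 and T618I/W791 libraries. It was at 52.8 and 56.7 FPKM with W791 and Q741, and 53.1 with vector, which had no receptor construct. The table holds a single value per gene. It shows neither the mutations nor how much of a value came from a construct. The part of these cell markers in the histone values was not tested.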

How the data were processed

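The deposited table gives per gene and library a value that its header does not name; the authors' tools were TopHat and Cufflinks on mm10, per the submitters' processing notes (versions not stated there), and the values were read as FPKM, with column totals between 439505 and 492025. No source used here gives the annotation behind the deposited FPKM values or says whether strand was used. Of 23444 rows, 27 with a date in place of a symbol were left out. Columns were matched to samples by the letters of the construct names.

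Values were taken as log2(FPKM + 1), and the 11188 genes that reached 1 FPKM in 2 libraries or more entered limma 3.58.1 (R 4.3.3) with 3 group means, a mean-variance trend and Benjamini-Hochberg adjustment at 0.05 (3 residual degrees of freedom). Single libraries were compared without a test at a 2-fold threshold. A simulation checked only the sign and size that the fit returned for large shifts in genes at higher levels. It does not measure how well differences as small as those of the histone genes would be found. The files hold no counts. Depth was approximated from the smallest steps of 853 genes with a single transcript over 3000 bases, so fragment numbers are approximate. GENCODE M21 (mm10) gave positions for all 67 members, transcript ends and sequence; proteins were not used here.

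Described in full were the 3 members of each type with the highest mean, any member called, and the 3 highest and 3 lowest class differences among tested members; other tested members were added to complete the 13. Of the other lists, members past the threshold, Slbp, Npat and the 3 highest replication-independent histones were named by rule. Further genes of these lists, H1f0 and H2afy among them, were named after their values were seen. The members and lists were chosen with earlier results of these data known. Alternatives changed the pseudocount, the filter, the scaling, the trend and the grouping, or left out a library.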

Additional observations from a re-analysis of the deposited data

Results flagged for a closer look

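In 5 of the 13 histone genes tested (38.5%), T618I/Q741 minus Q741 and T618I/W791 minus W791 had opposite signs and lay at least 1 apart on the log2(FPKM + 1) scale. The same held for 1377 of all 11188 genes tested (12.3%). Each value rests on 1 library a side, and the difference was not tested. For Hist1h1c the value was 0.44 on the Q741 tail and -0.95 on the W791 tail, a difference of 1.39. For Hist1h2bc it was 0.34 and -0.83, a difference of 1.17. For Hist3h2a it was 0.17 and -1.14, a difference of 1.31. For Hist1h4c it was 0.05 and -1.74, a difference of 1.78, with about 5.81 fragments behind the T618I/W791 value. Hist1h4i went the other way, at -0.70 and 0.41, a difference of -1.11.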

How the results depend on the processing

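In the comparison of T618I-containing constructs with truncations, no histone gene was called under any alternative that kept a filter on level. With no filter (57 members tested) 1 member was called lower, Hist1h4k (adjusted p = 0.0489), and against vector 2 were, Hist1h4k (0.00435) and Hist1h2bl (0.0161); truncations against vector gave 1, Hist1h2bl (0.0300). Each is listed at 0 in every library of the lower class, so these calls support nothing here. The share of all genes called with no filter is not given. The lowest adjusted p among the 11 tested members described by rule was 0.111, for Hist2h2be with vector counted among the truncations. Without W791 or without Q741 its adjusted p was 0.9997 and 0.9998. Of these members' values under the alternatives, 109 kept their sign and side of the threshold and 16 changed sign. Hist1h2ae was 0.018 after median-ratio scaling; Hist1h3c was -0.059 with a pseudocount of 0.1, and -0.32 both with vector counted among the truncations and with the tail as a block. With each library left out in turn, the difference ran from -0.43 to 0.14 for Hist1h1c and from -0.37 to 0.048 for Hist1h2bc (above 0 without T618I/W791 in both), from -0.25 to 0.043 for Hist1h2bg (above 0 without T618I/W791 and, at 0.033, without W791), from -0.35 to 0.13 for Hist1h2ae (above 0 without T618I and, at 0.025, without T618I/Q741), from -0.18 to 0.33 for Hist1h3c (below 0 without T618I and, at -0.11 and -0.020, without T618I/W791 and without W791), from -0.40 to 0.25 for Hist1h4i (above 0 without T618I/Q741 and, at 0.0020, without W791) and from -1.07 to 0.10 for Hist1h4c (above 0 without W791). The median of the members tested ran from -0.33 without Q741 (12 members kept by the filter) to -0.023 without W791 (11 members). The cause of these changes of sign was not tested. The labels carry no replicate numbers; the block paired constructs by their tail over 3 pairs, with T618I set beside vector, and again called no member (Hist2h2be -0.51, adjusted p = 0.202). Low levels limit the rest: the filter left out 54 of the 67 members, and 10 of these were listed at 0 throughout.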
